A study of Saccharomyces cerevisiae with 6 samples.

Results

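The plasma membrane proton pump of budding yeast and the genes that act on it were compared between cells with and without the prion [GAR+]. The 7 genes were chosen by name and not by a rule on their values, but with earlier results of these data known. PMA1 and PMA2 encode the proton ATPase, and PMP1, PMP2 and PMP3 encode small proteolipids of the membrane. HRK1 and PTK2 are kinase genes. The platform annotation assigned 8 probe sets to them, 1 for each gene and 2 for PMP2, out of 6504 probe sets tied to a single gene, which stand for 5656 genes.

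Pma1 uses ATP to move protons out of the cell, and the gradient it builds drives nutrient uptake through proton-coupled permeases and keeps the cytosol from turning acid. It is among the most abundant proteins of the yeast plasma membrane, and glucose activates it within minutes through phosphorylation, in which the kinases Ptk2 and Hrk1 have a part. Pma1 protein, in complex with the glucose signalling factor Std1, is known from work on [GAR+] as part of the prion state. A prion is a protein-based element that is inherited at cell division with no mutation, and the arrays measured transcripts, not proteins.

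All cultures were of the laboratory strain W303, grown as free cells in complete synthetic medium with 2% glucose to late exponential phase, at an OD600 of about 0.8. The [gar-] group, which lacks the prion, and the [GAR+] group, which carries it, had 3 separately grown cultures each, and every culture was hybridised to 1 Affymetrix array. The sources used here do not give mating type, auxotrophies or the number of isolates behind each group. Values below are MAS5 signals after quantile normalisation of the 6 arrays. Differences are [GAR+] minus [gar-] in log2(signal + 16), where the added 16 makes the fold of a dim gene too small, and their standard errors and p-values come from limma. A probe set passed at a Benjamini-Hochberg adjusted p under 0.05 over all 6504.

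The deposited signals had trimmed means from 192 to 500 on the different arrays, hence the normalisation. HXT3, the glucose transporter gene whose loss of signal marks [GAR+] on these arrays, lay between 3559 and 4404 in [gar-] cultures and between 42.8 and 75.4 in [GAR+] cultures (limma, adjusted p = 6.86e-07). Both arrays numbered 2 lay away from the other 4 on the first principal component, which held 39.7% of the variance. Signal for the 3' end of actin over that for its 5' end, a sign of RNA and labelling quality, was 1.17 to 1.64 on [gar-] arrays and 1.04 to 1.31 on [GAR+] arrays. The same ratio for the TATA-binding protein gene was 1.85 to 2.98 on [gar-] arrays and 2.82 to 3.41 on [GAR+] arrays. [GAR+] culture 2 had the lowest actin ratio, 1.04, but the highest of this second gene, 3.41. [gar-] culture 2 had the lowest of the second gene, 1.85. The part of these ratios in the values of the pump genes was not tested. All 6 marker genes of mating type a read above the non-yeast control probe sets on every array, against 1 of 4 for mating type alpha. Their summed signal was 5334 to 6767 in [gar-] and 6411 to 8518 in [GAR+] for type a, and 103 to 116 and 108 to 138 for type alpha. Of 6 markers of stressed or stationary cells, 4 read above the controls on every array. The sums over all 6 were 1930.3 to 5241 in [gar-] and 3251 to 3874 in [GAR+], and HSP12, at 1240 to 4228, was the largest part. HSP12 gave a log2 difference of 0.31. HSP26, CTT1, SPI1, DDR2 and GRE1 gave -0.17, -0.38, -0.38, -0.48 and -0.24, and CTT1 and GRE1 fell below the controls on some arrays. The unadjusted p in limma was 0.140 or more for each of these markers. With culture number as a block in limma it was 0.0360 for SPI1 (adjusted p = 0.735) and 0.0778 or more for the others. Of 4 markers of sporulating cells, 2 read above the controls on every array and SPO11 was below them on every array. The sums over all 4 were 102 to 143 and 82.0 to 155. Bulk RNA does not tell fewer cells with a transcript from less of it per cell.

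Of the 8 probe sets of the pump genes, 0 passed in limma, against 0.0154% of all 6504 probe sets, which is HXT3 alone. At an unadjusted p under 0.05 limma found 0 of the 8, against 2.98% of all. The [gar-] and [GAR+] values overlapped for all 8. Across all probe sets, groups did not overlap with [GAR+] higher for 4.41% and with [GAR+] lower for 4.44%, so 0 of 8 is near the background. The 8 differences lay on both sides of 0, with 4 above and 4 below and a median of 0.05, beside 0.01 for all probe sets tested. The 95% confidence interval lay within 2-fold in either direction for all 8 and within 1.5-fold for 5 of them, those of PMA1, HRK1 and PMP3 and both of PMP2. The interval also lay within 2-fold for 96.1% of all probe sets. The share of all probe sets within 1.5-fold is not given here, so 5 of 8 cannot be set against a background.

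**Figure D1:**
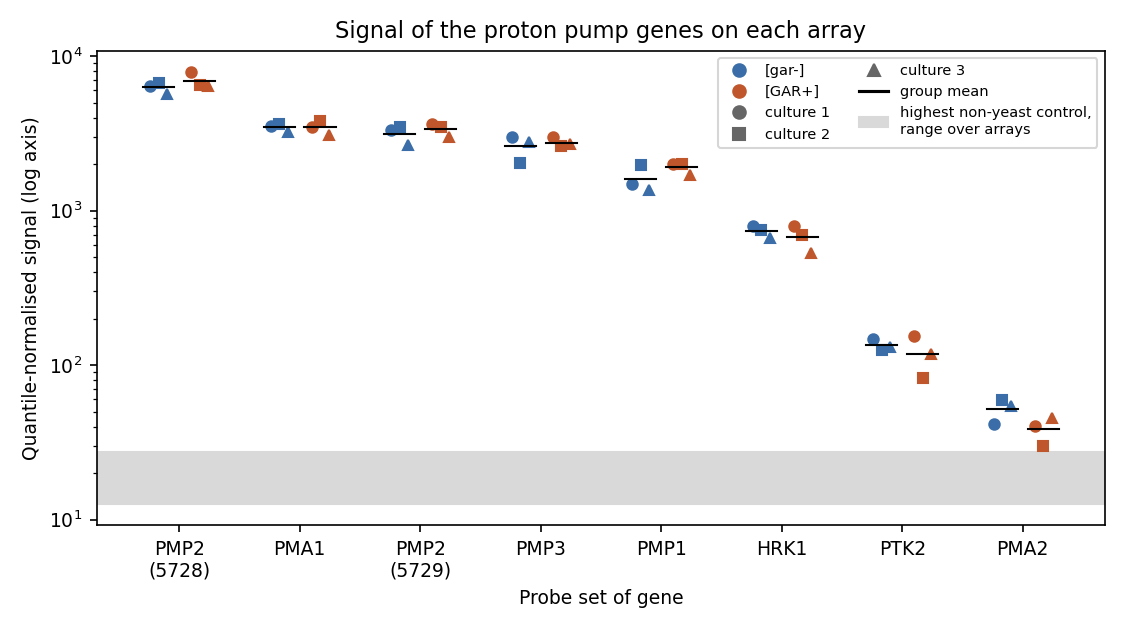
Quantile-normalised signal (log axis) of the 8 probe sets on the 6 arrays, ordered by mean. Points are cultures, black bars are group means, and the grey band is the range, 12.7 to 27.6, of the highest non-yeast control on an array. The values of both groups overlap for every probe set, and PMA2 lies nearest to the controls.

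PMA1 (YGL008C) encodes the essential form of the pump. Its signal was 3540.3, 3620.2 and 3225 in [gar-] cultures 1, 2 and 3, and 3472, 3819.9 and 3084 in [GAR+] cultures 1, 2 and 3. Culture 2 was the highest and culture 3 the lowest in both groups, and the [GAR+] values enclosed the [gar-] values. The means were 3462 ± 209 and 3459 ± 368 (SD, n = 3). The log2 difference was -0.005 with a standard error of 0.12, and its 95% confidence interval ran from 0.829-fold to 1.20-fold. In limma the unadjusted p was 0.968 and the adjusted p was 1.00. The highest array was 1.24 times the lowest. The within-group SD of PMA1, 0.13 on the log2 scale, stood at percentile 15.0 of all probe sets tested, whose median was 0.21. That rank takes in probe sets of every brightness, and none was computed among those as bright as PMA1. The sign of so small a difference has no meaning: it was 0.17 on the deposited signals, where the median of all probe sets was 0.16, and -0.08 without [GAR+] culture 2.

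PMA2 (YPL036W) encodes a minor isoform of the pump, which is closely similar to Pma1 in sequence and is not needed for growth. Its signal was 41.4, 59.6 and 54.5 in [gar-] cultures 1, 2 and 3, and 40.3, 29.8 and 45.7 in [GAR+] cultures 1, 2 and 3. [GAR+] culture 2 was the lowest of all 6 and [gar-] culture 2 the highest, while both cultures numbered 1 were nearly equal. The means were 51.9 ± 9.39 and 38.6 ± 8.06 (SD, n = 3). The log2 difference was -0.32 with a standard error of 0.18, a ratio of 0.804 with a 95% confidence interval of 0.610 to 1.06. The unadjusted p in limma was 0.108 and the adjusted p was 1.00. At culture numbers 1, 2 and 3 the log2 difference was -0.03, -0.72 and -0.19. Without both arrays numbered 2 it was -0.11 in limma, and without [GAR+] culture 2 alone -0.20. Other removals made it larger, to -0.43 without [gar-] culture 1 and -0.41 without [GAR+] culture 3. All 6 PMA2 signals were higher than any non-yeast control on their own array, at 1.5 to 4.30 times the highest one, so the probe set reads close to the dim end of the array.

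In level the 2 ATPase genes were far apart. PMA1 ranked between percentiles 97.4 and 98.1 of the probe sets tested on the 6 arrays, at a mean percentile of 97.8 ± 0.207 in [gar-] and 97.8 ± 0.388 in [GAR+] (SD, n = 3). PMA2 ranked in the lower part, at 26.8 ± 3.50 in [gar-] and 21.6 ± 2.95 in [GAR+] (SD, n = 3). Over the highest control of the same array the PMA1 signal was 128 to 254 times as high. The PMA1 signal was 85.4, 60.7 and 59.2 times that of PMA2 on the arrays of [gar-] cultures 1, 2 and 3, and 86.2, 128 and 67.5 times on those of [GAR+] cultures 1, 2 and 3. These factors compare different probes, which bind with different strength, and are not per length, so they are not ratios of transcript number. Whether PMA1 transcripts add to the PMA2 signal through shared sequence was not tested.

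The within-array difference between PMA1 and PMA2 was then compared between groups, which removes most of the effect of probe strength but not what the added 16 does to a gene as dim as PMA2. On the log2(signal + 16) scale that difference was 5.95, 5.59 and 5.52 in [gar-] cultures and 5.95, 6.39 and 5.65 in [GAR+] cultures. [GAR+] culture 2 was the highest of the 6, both cultures numbered 1 were equal to 2 decimals, and the groups overlapped. The means were 5.69 ± 0.232 and 6.0 ± 0.370 (SD, n = 3), and [GAR+] minus [gar-] was 0.31. The exact two-sided permutation test gave p = 0.2, where 3 against 3 cannot go below 0.1, and 0.6 after adjustment over the 3 gene pairs tested in this way. Without [GAR+] culture 2 the value was 0.12 and without both arrays numbered 2 it was 0.07. Without [gar-] culture 1 the value was 0.44, and without [GAR+] culture 3 it was 0.48. With 1 or 64 added to the signals in place of 16 it was 0.42 or 0.17.

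**Figure D2:**
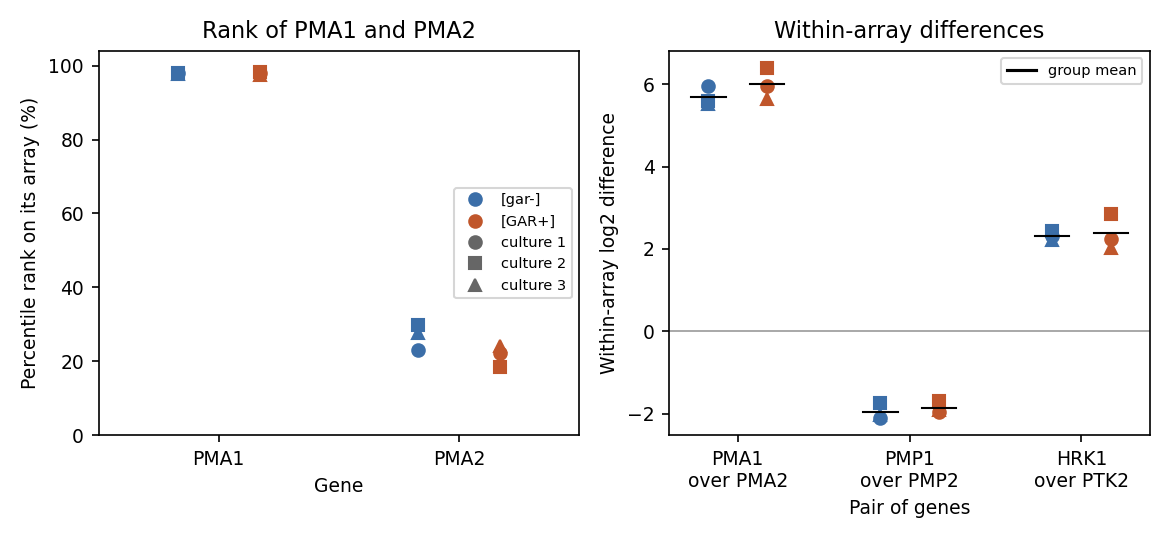
Left, percentile rank of the PMA1 and PMA2 probe sets among all tested probe sets on each array. Right, within-array difference of log2(signal + 16) for 3 pairs of genes, with group means as black bars. PMA1 sits near percentile 98 on all 6 arrays and PMA2 between 18.4 and 29.8, and the groups overlap in each pair.

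PMP1 (YCR024C-A) and PMP2 (YEL017C-A) encode closely related, very small proteolipids with a single membrane span that bind the pump and raise its activity. The PMP1 signal was 1489.9, 1983 and 1358 in [gar-] cultures 1, 2 and 3, and 2002, 2018 and 1711 in [GAR+] cultures 1, 2 and 3. [gar-] cultures 1 and 3 lay below all [GAR+] cultures, and [gar-] culture 2 lay among them. The means were 1610.4 ± 329 and 1910.2 ± 173 (SD, n = 3), a log2 difference of 0.26 with a standard error of 0.16 (limma, unadjusted p = 0.146, adjusted p = 1.00). At culture numbers 1, 2 and 3 it was 0.42, 0.03 and 0.33, so [GAR+] was higher in 3 of 3. Without [gar-] culture 2 the difference was 0.41, with an unadjusted p of 0.0165 in limma, and without both arrays numbered 2 it was 0.37, with 0.0268. These were the only 2 of 14 alternative settings with an unadjusted p under 0.05. Without [gar-] culture 3 the difference was 0.15, with an unadjusted p of 0.419 in limma. PMP1 passed after adjustment in 0 of the 14.

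The brighter probe set of PMP2 gave the highest signal of the 8 on all 6 arrays. It read 6459.65, 6722 and 5664 in [gar-] cultures 1, 2 and 3, and 7867, 6536 and 6459.65 in [GAR+] cultures 1, 2 and 3. The log2 difference was 0.14 with a standard error of 0.11 (limma, unadjusted p = 0.234), and it was 0.06 without [GAR+] culture 1, the highest array, and 0.07 without [gar-] culture 3, the lowest. The other probe set of PMP2 read 3321, 3493 and 2655 in [gar-] and 3620.2, 3482 and 3004 in [GAR+], which gave 0.10 with a standard error of 0.14. Its difference was -0.02 without [gar-] culture 3. For both probe sets of PMP2 the cultures numbered 2 were nearly equal, at -0.04 and -0.004 for the brighter and the dimmer set, and those numbered 1 and 3 gave 0.28 and 0.19 for the brighter set and 0.12 and 0.18 for the other.

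The PMP1 probe set and the dimmer PMP2 probe set carry the array's suffix for a sequence family, and the brighter PMP2 set carries the suffix for an incomplete set of unique probes. The split of these signals between PMP1 and PMP2 transcripts is therefore uncertain. Over the 6 arrays PMP1 correlated with the PMP2 probe sets at r = 0.75 and 0.83, which describes arrays that share a normalisation and culture numbers. The within-array log2 difference of PMP1 to the brighter PMP2 set averaged -1.97 ± 0.188 in [gar-] and -1.85 ± 0.147 in [GAR+] (SD, n = 3). [GAR+] minus [gar-] was 0.11, with an exact permutation p of 0.5, and -0.001 on the deposited signals.

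PMP3 (YDR276C) encodes another small hydrophobic membrane protein. It is not known as a part of the pump: cells without it have a hyperpolarised plasma membrane and take up toxic cations more readily. Its signal was 3019, 2028 and 2783 in [gar-] cultures 1, 2 and 3, and 2984, 2608.5 and 2694 in [GAR+] cultures 1, 2 and 3. [gar-] culture 2 was low and the other 5 arrays lay close together. The means were 2609.8 ± 518 and 2762 ± 197 (SD, n = 3), and the log2 difference was 0.10 with a standard error of 0.16 (limma, unadjusted p = 0.545). Without [gar-] culture 2 it was -0.07. Unlike PMP1 and PMP2, PMP3 had its largest difference at culture number 2, 0.36, beside -0.02 and -0.05 at numbers 1 and 3.

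Both kinase genes had lower mean signals in [GAR+], and neither passed. HRK1 (YOR267C) read 799.6, 747 and 669 in [gar-] cultures 1, 2 and 3, and 799.6, 699 and 534 in [GAR+] cultures 1, 2 and 3. The cultures numbered 1 hold the same rank on their arrays and thus the same normalised value, and [GAR+] culture 3 was the lowest of all. The means were 739 ± 65.5 and 677 ± 134 (SD, n = 3), with a log2 difference of -0.14 and a standard error of 0.18 (limma, unadjusted p = 0.460). Without [GAR+] culture 3 it was 0.02.

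PTK2 (YJR059W) read 149, 126 and 131 in [gar-] cultures 1, 2 and 3, and 156, 82.9 and 118 in [GAR+] cultures 1, 2 and 3. [GAR+] culture 2 was the lowest and [GAR+] culture 1 the highest of all 6. The means were 135 ± 11.9 and 119 ± 36.3 (SD, n = 3), with a log2 difference of -0.20 and a standard error of 0.21 (limma, unadjusted p = 0.377). Without [GAR+] culture 2 it was 0.01. The within-array difference of HRK1 to PTK2 was 0.06 higher in [GAR+], with an exact permutation p of 0.9, and the value was -0.18 without [GAR+] culture 2. PTK2 had the widest spread among these probe sets, with a within-group SD of 0.29 on the log2 scale, at percentile 75.6 of all probe sets tested.

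**Figure D3:**
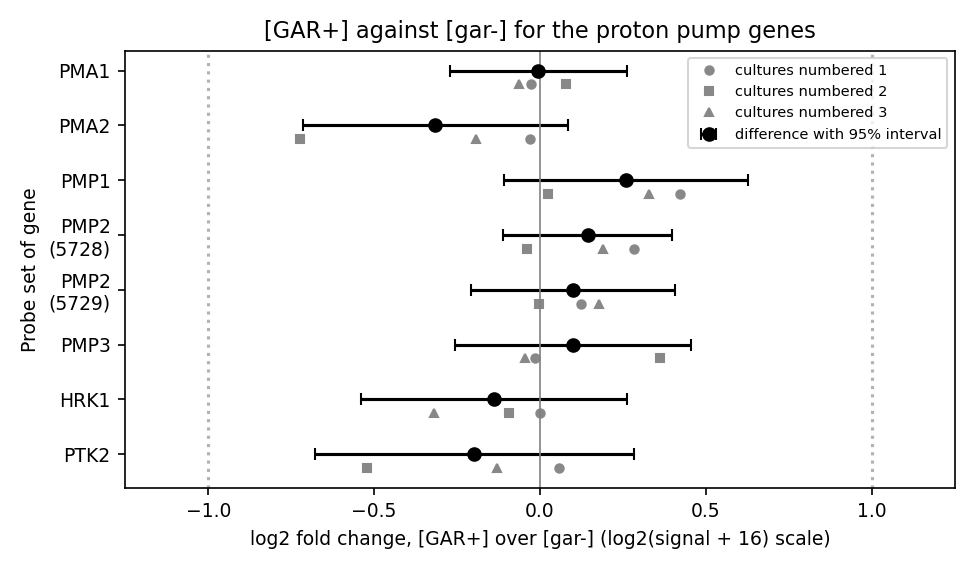
Log2 fold change of [GAR+] over [gar-] for the 8 probe sets. Black points and bars are the limma estimate and its 95% confidence interval, grey symbols the difference between the cultures of the same number, and dotted lines mark a 2-fold change. Every interval spans 0 and lies within 2-fold, and the cultures numbered 2 give the outermost grey point for PMA2, PMP3 and PTK2.

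The order of the signals was nearly the same in both groups. PMP1, HRK1, PTK2 and PMA2 took places 5 to 8 in this order on all 6 arrays, and the brighter PMP2 set took place 1. PMA1, the dimmer PMP2 set and PMP3 exchanged places 2 to 4. On the array of [GAR+] culture 1 the dimmer PMP2 set was above PMA1, and on that of [gar-] culture 3 PMP3 was above the dimmer PMP2 set. The order is one of probe signals and not of transcript numbers, for the reason given for PMA1 and PMA2.

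Among 4942 other genes of mean signal 32 or more, those whose log2 values over the 6 arrays were most like PMA1 were SEN1, a helicase gene, at r = 0.995, RPP1, a ribonuclease P gene, at 0.988 and DUS3, a tRNA modification gene, at 0.987. The closest to PMA2 was YJR084W at 0.994, the closest to PMP1 was ASN1, an asparagine synthetase gene, at 0.990 and the closest to PMP3 was PPM1 at 0.994. For the brighter and the dimmer PMP2 set they were RBP95 at 0.970 and SLT2, a cell wall integrity kinase gene, at 0.980. For HRK1 the closest was TEL1 at 0.986 and for PTK2 it was TRR2 at 0.981. With 6 arrays and this many genes, values near 1 are found for any pattern, and they describe these arrays only.

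No member lies next to another member in the genome's gene order. Of the 14 genes that adjoin the 7 members, 12 were measured, and 0 passed in limma. Only MTH1, which adjoins PMP3 and encodes a repressor of hexose transporter genes, had an unadjusted p under 0.05 among these 12. That is 1 of 12, beside the 2.98% of all probe sets. MTH1 gave 24.1 in [gar-] and 46.3 in [GAR+], a log2 difference of 0.62 (unadjusted p = 0.00650, adjusted p = 1.00), and the [gar-] mean lies within the 12.7 to 27.6 of the highest controls. TLD1 on the other side of PMP3 gave 0.09. The neighbour of PMA1, LEU1, gave -0.0004, and the neighbour of PMP1, YCR024C-B, gave 0.16 at mean signals of 3566 and 3982. These neighbours were named after their values were seen.

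Genes that regulate, build or work beside the pump were taken as 9 lists with 121 genes, of which 118 were measured. None of the 118 passed in limma. At an unadjusted p under 0.05 there were 8, which is 6.78%, beside 2.78% of all 5656 genes with 1 probe set each. These 8 come from 6 lists, 3 with higher and 5 with lower signal in [GAR+], and the lists were drawn up with earlier results of these data known. Of all 118, 61 lay above 0 and 57 below. The list medians given next are close to 0, and that of the permeases was the only one of the 9 to keep its sign in all 14 alternative settings. Without both arrays numbered 2 it was 0.0106, beside 0.0066 for all probe sets. On the deposited signals it was 0.25, beside 0.16 for all.

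The list drawn up as regulators of the pump held 21 kinases, phosphatases, 14-3-3 proteins and others. Whether each of them acts on the pump was not tested. It had 10 genes above 0 and 11 below, with a median of -0.003. GLC7, which encodes the catalytic subunit of type 1 protein phosphatase, read 558, 652 and 631 in [gar-] and 743, 768 and 809 in [GAR+]. All 3 [GAR+] values lay above all [gar-] values, with a log2 difference of 0.33 (limma, unadjusted p = 0.0453, adjusted p = 1.00). RSP5, a ubiquitin ligase gene, gave 0.48 and read 193 in [gar-] culture 2 against 396 and 301 in the other [gar-] cultures. PTK1 and HSP30 were picked after their values were seen. PTK1, the paralogue of PTK2, gave -0.16 with a standard error of 0.17. HSP30 encodes a stress-induced membrane protein known to restrain the pump. It read 4823, 1516 and 1824 in [gar-] cultures 1, 2 and 3, and 4204, 1299.6 and 1534 in [GAR+] cultures 1, 2 and 3. Both cultures numbered 1 were thus far above the other 4 arrays, and the log2 difference between groups was -0.22 with a standard error of 0.49. [GAR+] was the lower at each of the 3 culture numbers, and with culture number as a block the standard error was 0.099 (limma, unadjusted p = 0.0561, adjusted p = 0.742).

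Biogenesis and traffic of the pump had 7 of 12 genes above 0 and a median of 0.07, which was -0.07 without [gar-] culture 1. SEC24, which encodes a subunit of the vesicle coat that leaves the endoplasmic reticulum, read 598, 647 and 585 in [gar-] and 476, 487 and 465 in [GAR+]. The groups did not overlap, and the difference was -0.35 (limma, unadjusted p = 0.0349, adjusted p = 1.00). ELO2, a fatty acid elongase gene, gave 0.28, with 1416 in [GAR+] culture 2 against 861 and 1032 in the other [GAR+] cultures.

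Cation transporters had 6 of 12 measured genes above 0 and a median of -0.02. The calcium channel gene CCH1 gave -0.46 (unadjusted p = 0.0268) with groups that did not overlap, and the sodium pump gene ENA5 gave -0.29. Other P-type ATPases, the family to which Pma1 belongs, had 8 of 11 above 0 and a median of 0.03. Of these, YPK9, a vacuolar member, gave 0.30 with groups that did not overlap. SPF1, a member in the endoplasmic reticulum, gave 0.63 and read 144 in [gar-] culture 2 against 662 and 526 in the other [gar-] cultures. The vacuolar proton ATPase, a separate multi-subunit pump that acidifies the vacuole, had 11 of 20 above 0 and a median of 0.01. Its assembly gene VMA22 gave -0.40 (limma, unadjusted p = 0.0436) with groups that did not overlap, and its catalytic subunit gene VMA1 gave -0.42.

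The proton-coupled permeases, which spend the gradient the pump makes, had 10 of 17 above 0 and a median of 0.08. DIP5, a permease gene for glutamate and aspartate, read 484, 528 and 319 in [gar-] and 314, 195 and 284 in [GAR+], and the difference was -0.71, standard error 0.24 (limma, unadjusted p = 0.0148, adjusted p = 1.00). ALP1, a permease gene for basic amino acids, gave 0.46 (unadjusted p = 0.0188) at signals of 14.0 to 35, which on some arrays lay below the highest control. GNP1, a glutamine permease gene named because it is the remaining gene of the 8, gave 0.54 (limma, unadjusted p = 0.0280). It read 304 in [gar-] culture 2 against 499 and 506 in the other [gar-] cultures. The groups did not overlap for DIP5, ALP1 and GNP1.

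Eisosome genes, which shape furrows of the plasma membrane from which Pma1 is absent, had 8 of 11 below 0 and a median of -0.10, which was 0.01 without [gar-] culture 3. SLM1 gave -0.46 (unadjusted p = 0.0130) with groups that did not overlap, and NCE102 gave 0.24. Of the 3 genes related to PMP3, SNA2 gave 0.30 and SNA4 -0.06. Rap1 and Gcr1 are transcription factors known to drive PMA1 as well as glycolytic genes. Their list had 5 of 11 above 0 and a median of -0.02, with GCR1 at 0.43 and GCR2 at 0.27, and GCR1 read 144 in [gar-] culture 2 against 293 and 257 in the other [gar-] cultures.

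**Figure D4:**
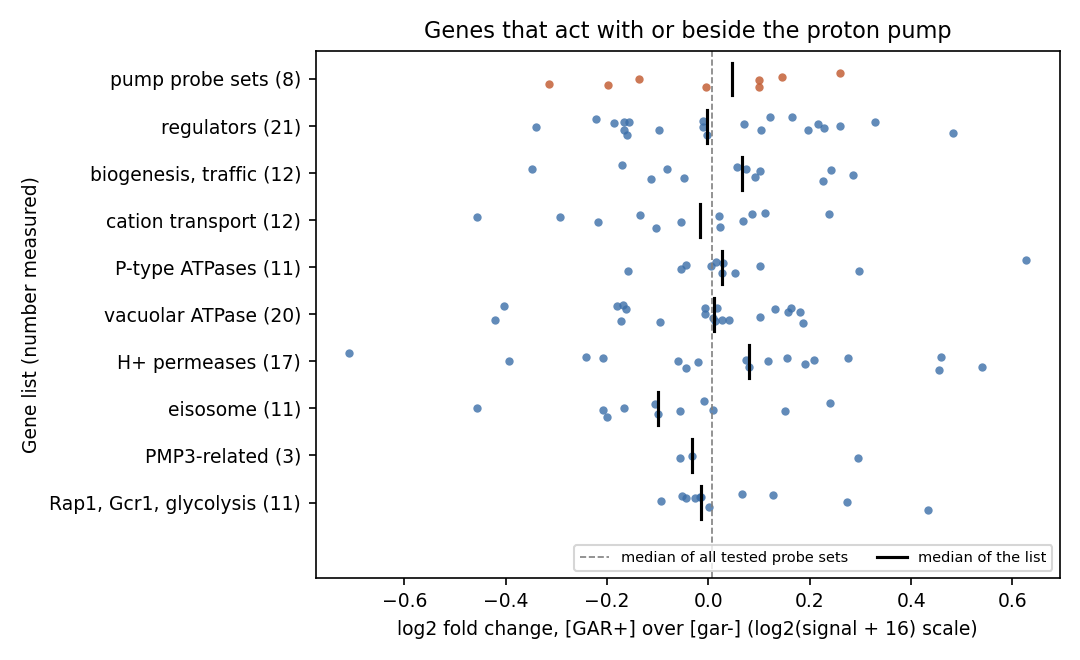
Log2 fold change of [GAR+] over [gar-] for the 8 pump probe sets and for the measured genes of 9 lists, 1 point each. Black bars are list medians and the dashed line is the median of all tested probe sets, 0.01. The list medians run from -0.10 for eisosome genes to 0.08 for proton-coupled permeases, and no point passed the test.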

How the data were processed

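Per the labels' protocols, poly(A) RNA of each culture was turned into biotin-labelled cRNA and hybridised to its own array. The deposited table holds 1 linear signal intensity per probe set and array for 9335 probe sets, and the submitters' processing notes name MAS5 and GCOS. The sources used here do not give their versions, the scaling target, detection calls or the genome build. Probe sets were named through the platform annotation of 2016, and all 6504 with a single gene matched the gene table of assembly R64. Signals were quantile-normalised over all probe sets, 16 was added, and log2 values were fitted with limma 3.58.1 in R 4.3.3 (eBayes with an intensity trend, two-sided, no covariate), after a check on simulated data. The number of arrays limits the precision, and the median standard error was 0.18. Nothing says whether the cultures came from separate isolates, so p-values measure the spread between cultures. Non-yeast controls are 16 probe sets for mouse, bacterial and bacteriophage sequences not meant to give signal.

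The members, lists and alternatives were chosen with earlier results of these data known. Named genes are all members, HXT3, the 2 genes of smallest p in each list and the 3 genes most like each member, of which the text gives those for PMA1 and the first for the others. PTK1, HSP30, GNP1, SPO11, the stress markers and the neighbouring genes lie outside this rule and were named after their values were seen. The groups share culture numbers 1 to 3. After each group mean was subtracted, the 2 arrays of a number correlated across probe sets at 0.322, 0.347 and 0.346, each over the limit of 0.1. Arrays of unlike numbers gave -0.311 to 0.0751. The labels do not state a pairing, so it rests on these values.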

Additional observations from a re-analysis of the deposited data

How the results depend on the processing

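Over 14 alternatives, 0 of the pump probe sets passed in any, and HXT3 was the only call among all probe sets in each. With the replicate block the count of calls was 1 and no call changed. Probe sets with an unadjusted p under 0.05 in limma rose from 194 to 441 of all 6504 with this block. Among the 441 were 0 of the 8 pump probe sets, whose lowest unadjusted p was 0.0613, for PMP1 (limma). PMA2, PMP1 and the brighter PMP2 set kept their sign in all 14. With each array left out in turn, PMA2 ranged from -0.43 to -0.20, PMP1 from 0.15 to 0.41 and the brighter PMP2 set from 0.06 to 0.20. On the deposited signals, where the median of all probe sets was 0.16, HRK1 gave 0.0279 and PMA1 0.17. The PMP1 to PMP2 difference there was -0.00140. With scaling to a common trimmed mean PMA1 gave 0.0208, beside a median of 0.0214 for all probe sets, and the PMP1 to PMP2 difference was -0.000708. Without both arrays numbered 2, PMP3 gave -0.0332 and the HRK1 to PTK2 difference -0.12. With each array left out in turn, HRK1 ranged from -0.26 to 0.0207, PMA1 from -0.0788 to 0.0761, the dimmer PMP2 set from -0.0213 to 0.18, PMP3 from -0.0705 to 0.22, PTK2 from -0.38 to 0.00846 and the HRK1 to PTK2 difference from -0.18 to 0.23. PMA2 gave -0.42 with a pseudocount of 1 and -0.18 with 64, and -0.11 on the deposited signals. Among the list medians the permeases kept their sign in 14, with 0.01 to 0.25, and the regulators in 7, with -0.02 to 0.18. The eisosome median kept its sign in 12, with -0.19 to 0.06, and the biogenesis median in 13, with -0.07 to 0.22. The upper end of each of these list ranges was the value on the deposited signals. The cause of the sign reversals above was not tested.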
